A study of Mus musculus with 12 samples.

Results

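The mitochondrial protein import machinery was followed through 6 h of halofuginone in mouse embryonic fibroblasts, cells of connective tissue taken from embryos and grown in culture. Its members were taken by name: the 26 protein-coding genes whose symbol begins with Timm or Tomm, and 13 further genes listed by symbol (Samm50, Mtx1, Mtx2, Pam16, Dnajc15, Dnajc19, Grpel1, Grpel2, Hspa9, Pmpca, Pmpcb, Chchd4 and Gfer). This gave 39 of the 21409 protein-coding gene IDs and of 55536 gene IDs in all. The rule used no measured value. It also takes in 2 genes that share the naming but not the task: Tomm34, a cytosolic cochaperone, and Timmdc1, an assembly factor of respiratory complex I. Halofuginone (HF) blocks the charging of proline tRNA by the synthetase EPRS, and the series deals with the amino acid sensor GCN2 and with mTORC1. HF cells received 100 nM HF in high-glucose DMEM with dialyzed serum, and control cells received the same medium without it, also for 6 h. Both had been grown before in fetal bovine serum that the labels do not call dialyzed, so the change of serum is shared by all groups. Total RNA was sequenced for each condition, as were ribosome footprints (RPF), the mRNA fragments that ribosomes protect from nuclease, with 3 libraries in each of the 4 groups. No strain, genotype or passage is named in the labels, nor whether the replicates were separate cultures, so the p-values speak of library spread alone, and that spread may be technical.

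Nearly all mitochondrial proteins are made on cytosolic ribosomes and carried into the organelle. The TOM complex of the outer membrane holds the receptors Tomm20, Tomm22 and Tomm70a and the pore Tomm40, and the SAM complex inserts beta-barrel proteins into the same membrane. Small TIM chaperones escort hydrophobic precursors across the intermembrane space, where Chchd4 and Gfer form the MIA relay that places disulfide bonds. In the inner membrane TIM22 inserts carrier proteins, while TIM23 passes precursors with a cleavable presequence to a motor built around Hspa9 (mortalin), after which the peptidase of Pmpca and Pmpcb removes the presequence. A drop in import capacity is known to reach the integrated stress response, the same response that GCN2 starts when uncharged tRNA builds up.

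Library totals ran from 562794 counts in RPF HF 3 to 2527791 in RPF control 1, and members took 2036 to 10261 counts of a library. Replicates of each group differed with a chi-square per degree of freedom of 2.26 to 4.45, where independent counts would give 1. Of the nonzero counts of a library 55.6% (RPF control 1) to 68.4% (RNA control 2) were even, for a reason the sources do not give. What this does to the counting noise behind the chi-square values was not tested. The fits below were also run with halved counts. Treatment split the libraries along the first principal component (67.5% of variance for RNA, 64.1% for footprints). On the second footprint component (16.3%) RPF HF 2 lay at 34.3 and RPF HF 3 at −39.1, and on the second RNA component (11.2%) RNA control 2 lay at −31.9 and RNA control 3 at 23.2. Reference genes of the integrated stress response marked the treatment: all 5 tested rose in RNA and in footprints. Marker sums are in CPM (counts scaled to a common library size) by library totals alone, while the CPM of single genes below also use TMM factors. Of 10 fibroblast markers 9 were detected and Lum had 0 counts. Their summed level in RNA was 6187 to 6327 CPM in control and 4522 to 4555 in HF libraries. In footprints that sum went from 13382 to 14332 down to 7791 to 8074 CPM. The leukocyte markers Cd3e and Adgre1 and the endothelial markers Pecam1 and Tek had 0 counts in every library, as had Krt8, Myog and Sox10. The 4 endothelial markers together summed to 0 to 1.54 CPM in control RNA and 5.14 to 15.7 in HF RNA, and to 0 to 3.96 and 3.12 to 11.2 CPM in footprints. The 5 epithelial markers summed to 71.0 to 86.0 CPM in control RNA and 195 to 196 in HF RNA, and in footprints to 230.3 to 282 and 203 to 354 CPM. The 6 muscle and neural markers summed to 22.8 to 39.4 CPM in control and 7.86 to 31.7 in HF RNA, and to 62.1 to 87.0 and 23.4 to 60.4 CPM in footprints. Gm42418, a locus overlapping ribosomal RNA, took 11.8% to 13.7% of control and 7.35% to 9.48% of HF total RNA counts. The fibroblast, epithelial and endothelial sums and Gm42418 moved with treatment in RNA, as did the fibroblast and the muscle and neural sums in footprints, and their part in the results below was not tested. In bulk libraries, fewer cells of a type and less RNA per cell cannot be told apart.

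The share of import genes that changed was near that of all genes, at 39.4% of those tested in RNA and 46.9% in footprints. In total RNA 33 members could be tested, of which 4 rose, 9 fell and 20 were not called (edgeR quasi-likelihood test, Benjamini-Hochberg adjusted p under 0.05 over all genes tested). Of all 9145 genes tested 43.7% were called, 22.2% higher and 21.4% lower. In footprints 32 members were tested, of which 8 rose, 7 fell and 17 were not called, against 43.3% of 8373 genes called, 22.4% higher and 20.9% lower. The median log2 fold change of the members tested was −0.23 in RNA and 0.06 in footprints, beside −0.02 over all genes tested in either assay. HF and control RNA libraries did not overlap for 15 members, 5 higher and 10 lower in HF, where 25.9% of all genes were higher without overlap and 25.5% lower. In footprints 8 members were higher and 8 lower without overlap, against 25.2% and 26.2% of all genes. Inside the group, single members moved in opposite directions, as the plot of changes by complex shows.

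**Figure D1:**
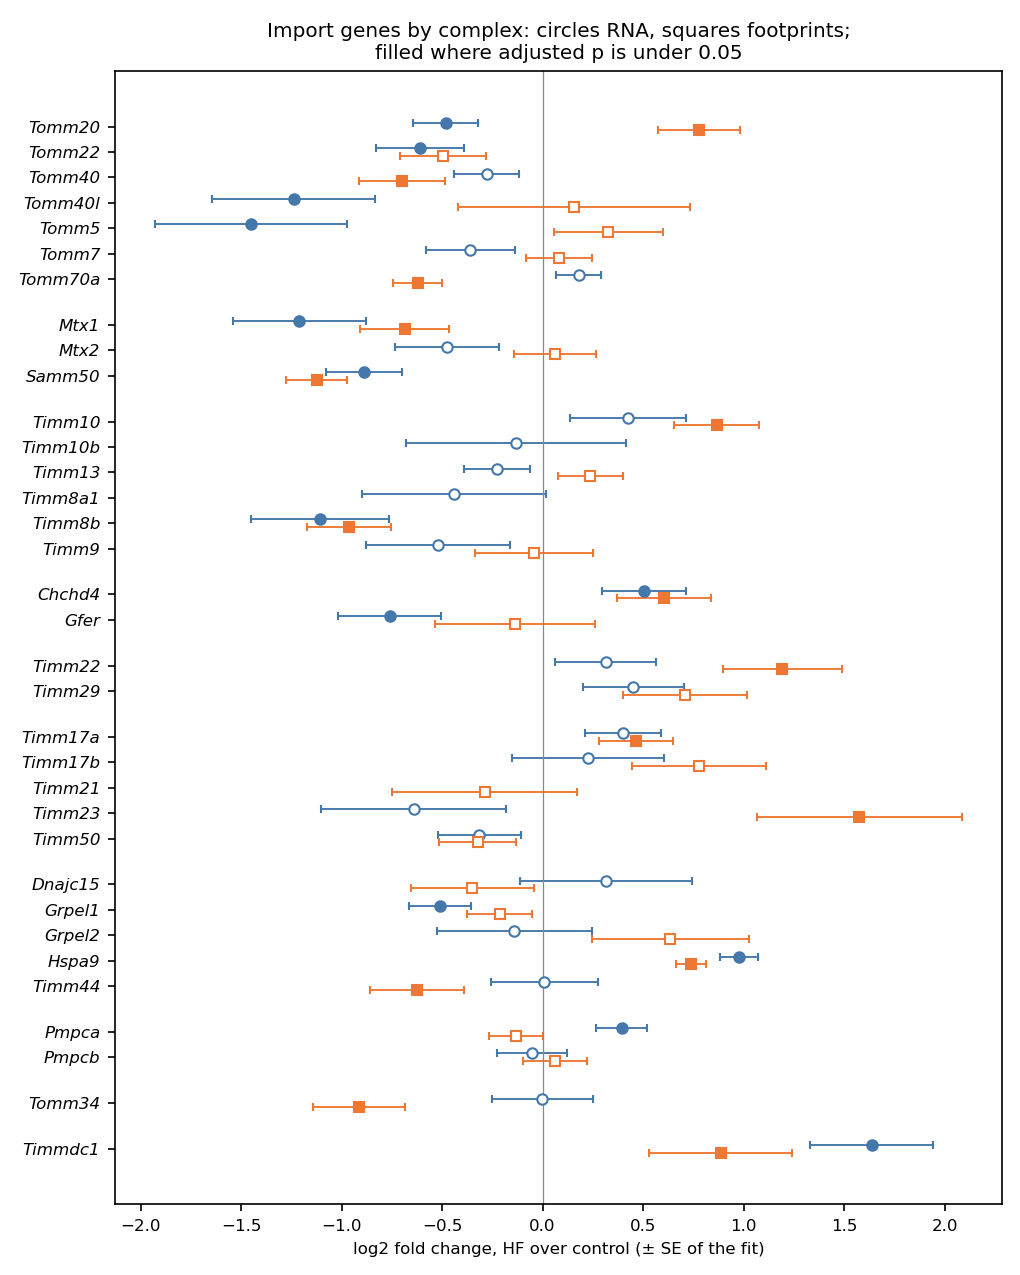
Log2 fold change of each tested import gene, HF over control, in total RNA (circles) and footprints (squares), with bars of ± 1 SE of the edgeR fit, grouped by complex; filled symbols have an adjusted p under 0.05. Samm50 and Timm8b lie left of 0 in both assays and Hspa9, Chchd4 and Timmdc1 right of it, while Timm23, Tomm20 and Tomm5 have the RNA symbol on the left and the footprint symbol on the right.

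Hspa9, the matrix Hsp70 that pulls precursors through TIM23, was the most abundant member by counts and rose in both assays. Control libraries held 458, 527 and 542 CPM of Hspa9 RNA and HF libraries 981, 1033 and 984 CPM. The footprint level of Hspa9 was 1331, 1346 and 1399.7 CPM in control and 2253, 2267 and 2271 CPM in HF cells. Replicates lay close together and the groups were far apart. RNA rose 1.97-fold (log2 fold change 0.98, SE 0.09, adjusted p = 5.68e-14) and footprints 1.67-fold (log2 fold change 0.74, SE 0.07, adjusted p = 8.22e-10). Both calls held in every alternative fit, with log2 fold changes of 0.90 to 1.02 in RNA and 0.66 to 0.74 in footprints. Hspa9 made up 17.5% ± 1.41 (SD, n = 3) of the members' RNA counts in control and 30.9% ± 0.674 in HF libraries, and 32.7% ± 1.10 and 46.8% ± 0.255 of their footprints. The summed share of the members therefore depends on this gene. With Hspa9 the members took 0.372% to 0.385% of protein-coding RNA counts in control and 0.393% to 0.399% in HF libraries. Without it the order turned, at 0.304% to 0.315% in control and 0.272% to 0.274% in HF libraries. Footprints behaved likewise: 0.420% to 0.430% in control and 0.452% to 0.475% in HF libraries with Hspa9, but 0.278% to 0.292% and 0.240% to 0.254% without it. In neither assay did the control and HF libraries overlap, with or without Hspa9.

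No other part of the motor was called higher. Grpel1, the nucleotide exchange factor that resets Hspa9, fell in RNA. In RNA, Grpel1 stood at 184, 165 and 146 CPM in control libraries and at 129, 115 and 105 CPM in HF libraries. No HF library reached the control range (log2 fold change −0.51, SE 0.15, adjusted p = 0.00523). The RNA call was lost in 2 fits, at an adjusted p of 0.0584 without RNA control 1 and 0.0643 without RNA HF 3. For Grpel1, footprint levels in control libraries were 150.4, 154 and 141 CPM, beside 116, 152 and 123 CPM in HF libraries. These footprint libraries overlapped (log2 fold change −0.21, SE 0.16, adjusted p = 0.300). Timm44, which tethers Hspa9 to the TIM23 channel, had overlapping RNA libraries at 30.6 to 62.0 CPM in control and 36.3 to 54.5 in HF (log2 fold change 0.01, SE 0.27, adjusted p = 0.981). Across control libraries Timm44 footprints came to 75, 71.7 and 56.2 CPM, and across HF libraries to 51.2, 45.2 and 32.2 CPM. Every HF footprint library lay below every control library (log2 fold change −0.62, SE 0.23, adjusted p = 0.0309), with the call lost in several fits: an adjusted p of 0.0678 with DESeq2, 0.115 without RPF control 1, 0.0859 without RPF control 2, 0.0526 without RPF HF 2 and 0.0984 without RPF HF 3. Dnajc15, a J-protein of the motor, and Grpel2, the other exchange factor, were not called in either assay, with log2 fold changes of 0.32 and −0.14 in RNA and −0.35 and 0.64 in footprints. Pam16 and Dnajc19, the J-like subunit and another J-protein, had too few reads for a test, at 0 to 6.13 and 1.96 to 12.6 CPM over the 12 libraries. The gene span of Grpel1 overlaps Tada2b, and without a stated use of strand reads from such neighbours cannot be told apart.

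**Figure D2:**
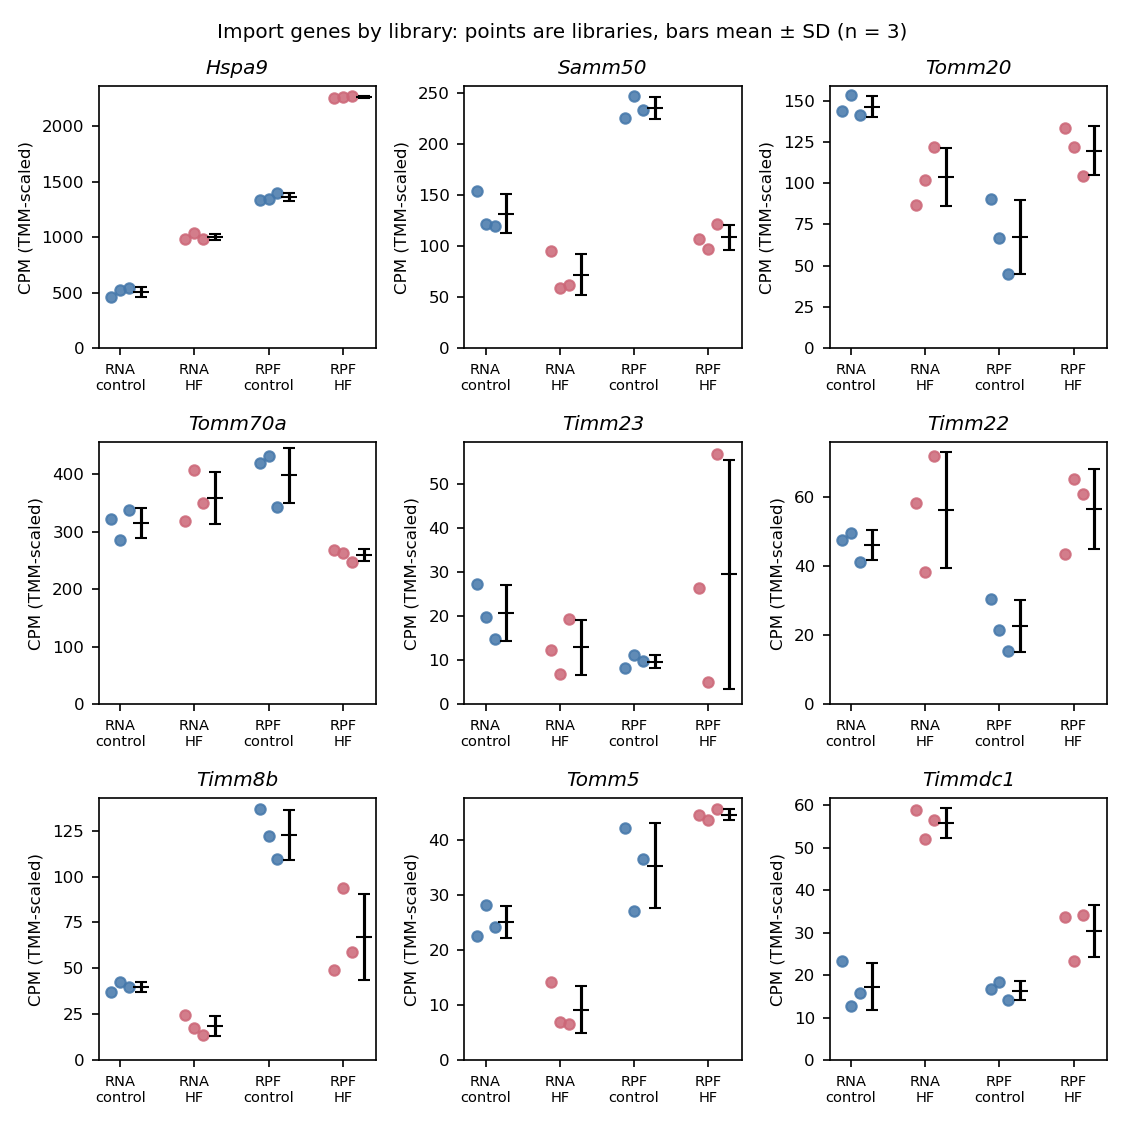
TMM-scaled CPM of 9 import genes in each library (y axis, from 0) for RNA and footprints of control (blue) and HF cells (red); points are libraries 1 to 3 from left to right and bars the mean ± SD (n = 3). Hspa9 is separated by treatment in both assays, and the 3 Timm23 footprint libraries of HF cells spread from 5.02 to 56.9 CPM.

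Of the 10 tested genes of the outer membrane complexes 6 fell in RNA, where 21.4% of all genes tested did. Of the 9 TOM members 7 were tested, and 4 fell in RNA (Tomm20, Tomm22, Tomm40l and Tomm5) while 0 rose. These counts are small and were not tested against other genes. In footprints Tomm20 rose and Tomm40 and Tomm70a fell. Tomm20 (chr8:126930664-126945921 in GRCm38, the whole gene with introns), the receptor for presequences, moved in opposite directions in the 2 assays. HF libraries gave 87.1, 102 and 122 CPM of Tomm20 RNA, and control libraries 144, 154 and 142 CPM. With HF, Tomm20 footprints measured 133, 122 and 104 CPM, against 90.4, 66.8 and 45 CPM in control libraries. HF libraries were all below the controls in RNA and all above them in footprints. RNA fell by 0.48 on the log2 scale (SE 0.16, adjusted p = 0.0126) and footprints rose by 0.78 (SE 0.20, adjusted p = 0.00233). The RNA call was lost without RNA HF 1, at a log2 fold change of −0.34 (adjusted p = 0.130), and the footprint call held in all alternatives. Tomm22, the central receptor, fell in RNA. Tomm22 RNA levels were 105, 59.2 and 88.2 CPM in the control libraries and 62.4, 52.1 and 54.2 CPM in the HF libraries. The groups overlapped (log2 fold change −0.61, SE 0.22, adjusted p = 0.0185), and the call was lost in 4 fits: an adjusted p of 0.0566 with DESeq2, 0.209 without RNA control 1, 0.0656 without RNA HF 2 and 0.0856 without RNA HF 3. Control libraries held 75.8, 91.9 and 92.8 CPM of Tomm22 footprints and HF libraries 50.1, 71.9 and 68.2 CPM. Here HF libraries lay below the controls without a call (log2 fold change −0.50, SE 0.21, adjusted p = 0.0587), and the adjusted p passed the threshold in 6 alternatives, down to 0.0261, among them those without RPF control 1, RPF HF 2 and RPF HF 3.

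Tomm40 forms the pore. The RNA level of Tomm40 was 148, 125 and 124 CPM in control and 100.3, 109 and 119 CPM in HF cells. HF libraries were lower throughout but the RNA test missed the threshold (log2 fold change −0.28, SE 0.16, adjusted p = 0.164). In footprints, Tomm40 stood at 95.3, 107 and 95.6 CPM in control libraries and at 57.4, 85.3 and 41.7 CPM in HF libraries. Footprints fell (log2 fold change −0.70, SE 0.21, adjusted p = 0.00826), a call lost at an adjusted p of 0.0517 without RPF HF 1. Tomm40l, a paralog of the pore, was lower in every HF RNA library. For Tomm40l, RNA levels in control libraries were 39.5, 28.2 and 24.2 CPM, beside 8.80, 17.7 and 13 CPM in HF libraries. RNA fell (log2 fold change −1.24, SE 0.41, adjusted p = 0.00984), with the call lost at an adjusted p of 0.109 without RNA control 1 and 0.0604 without RNA HF 1. Across control libraries Tomm40l footprints came to 9.73, 13.5 and 5.62 CPM, and across HF libraries to 18, 10 and 0 CPM. Footprints, with 0 to 32 counts per library, gave no call (log2 fold change 0.15, SE 0.58, adjusted p = 0.852), and the span overlaps Nr1i3 and Apoa2. Tomm5 (chr4:45105209-45108113), a small subunit that stabilizes the pore, had the lowest RNA fold change of the members tested. HF libraries gave 14.1, 6.88 and 6.48 CPM of Tomm5 RNA, and control libraries 22.5, 28.2 and 24.2 CPM. RNA fell 2.73-fold (log2 fold change −1.45, SE 0.48, adjusted p = 0.0104), a call lost at an adjusted p of 0.0693 without RNA HF 3. With HF, Tomm5 footprints measured 44.5, 43.5 and 45.5 CPM, against 42.2, 27 and 36.5 CPM in control libraries. The footprint libraries of HF cells were all above the controls, yet the change was small against its error (log2 fold change 0.33, SE 0.27, adjusted p = 0.347). Tomm70a (chr16:57121714-57154530), the receptor for carrier precursors, showed the opposite arrangement. Tomm70a RNA levels were 322, 286 and 338 CPM in the control libraries and 319, 409 and 349.7 CPM in the HF libraries. Control libraries held 419, 433 and 343 CPM of Tomm70a footprints and HF libraries 269, 263 and 248 CPM. RNA libraries overlapped (log2 fold change 0.18, SE 0.11, adjusted p = 0.198), whereas every HF footprint library was below every control (log2 fold change −0.62, SE 0.12, adjusted p = 0.000109). That footprint call held in all alternatives. Tomm7, another small subunit, was not called, with log2 fold changes of −0.36 in RNA and 0.08 in footprints.

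The SAM complex was lower in both assays for 2 of its 3 genes, beside 21.4% of all genes tested in RNA and 20.9% in footprints. Samm50 (chr15:84192240-84216083), the barrel that inserts other beta-barrel proteins, had these values. The RNA level of Samm50 was 154, 121 and 119.7 CPM in control and 95, 58.9 and 61.8 CPM in HF cells. In footprints, Samm50 stood at 225, 247 and 233 CPM in control libraries and at 107, 97 and 121 CPM in HF libraries. HF libraries were lower throughout. RNA fell 1.85-fold (log2 fold change −0.89, SE 0.19, adjusted p = 7.23e-05) and footprints 2.18-fold (log2 fold change −1.12, SE 0.15, adjusted p = 3.26e-07), and both calls held in every alternative. Mtx1, the metaxin at its cytosolic face, fell as well. For Mtx1, RNA levels in control libraries were 43.5, 35.2 and 52.5 CPM, beside 26.4, 15.7 and 15.3 CPM in HF libraries. Across control libraries Mtx1 footprints came to 75, 71.7 and 108 CPM, and across HF libraries to 52.9, 50.2 and 49.3 CPM. The groups did not overlap in either assay. The RNA call (log2 fold change −1.21, SE 0.33, adjusted p = 0.00199) held in every alternative, and the footprint call (log2 fold change −0.69, SE 0.22, adjusted p = 0.0127) was lost at an adjusted p of 0.0658 without RPF control 3. Mtx2, its partner metaxin, was not called in RNA (log2 fold change −0.48, SE 0.26, adjusted p = 0.129) or footprints (log2 fold change 0.06, SE 0.20, adjusted p = 0.835). Without RNA control 1, the library with the lowest Mtx2 level of the controls, its RNA log2 fold change was −0.72 (adjusted p = 0.0343).

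Of the 7 small TIM chaperones 4 were tested in footprints, where 1 rose and 1 fell, beside 22.4% and 20.9% of all genes tested. In RNA 6 were tested, and 0 rose and 1 fell, beside 22.2% and 21.4%. Timm8b, the partner of Timm13, was lower in HF cells in both assays. HF libraries gave 24.6, 17.7 and 13.5 CPM of Timm8b RNA, and control libraries 37, 42.3 and 39.9 CPM. With HF, Timm8b footprints measured 49, 93.7 and 58.8 CPM, against 137, 122 and 109.6 CPM in control libraries. No HF library overlapped the controls. RNA fell 2.15-fold (log2 fold change −1.11, SE 0.34, adjusted p = 0.00654), a call lost at an adjusted p of 0.0618 without RNA HF 3. Footprints fell 1.95-fold (log2 fold change −0.96, SE 0.21, adjusted p = 0.000380), a call kept in every alternative. The span of Timm8b overlaps Nkapd1. Timm10, which forms the carrier chaperone with Timm9, was higher in footprints. Timm10 RNA levels were 38.6, 26.8 and 29.4 CPM in the control libraries and 49.3, 44.2 and 37.1 CPM in the HF libraries. Control libraries held 46.6, 52.1 and 63.2 CPM of Timm10 footprints and HF libraries 82.7, 105 and 106 CPM. RNA libraries overlapped (log2 fold change 0.43, SE 0.29, adjusted p = 0.233), and HF footprints were all above the controls (log2 fold change 0.87, SE 0.21, adjusted p = 0.00118), a call kept in every alternative. Its partner Timm9 was not called, with log2 fold changes of −0.52 in RNA and −0.04 in footprints. Timm13 was not called either, at −0.23 and 0.24. Timm10b and Timm8a1 passed the count filter in RNA only and gave −0.13 and −0.44 without a call. Timm8a2, a close copy of Timm8a1, had counts in RNA HF 2 alone, and reads of such copies may be split between them.

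The MIA relay divided between its 2 enzymes. Chchd4, the oxidoreductase that forms disulfides in imported proteins, was higher in HF cells. The RNA level of Chchd4 was 62.8, 47.9 and 78.8 CPM in control and 87.1, 85.5 and 98.3 CPM in HF cells. In footprints, Chchd4 stood at 48.7, 58.2 and 42.2 CPM in control libraries and at 70.3, 58.5 and 106 CPM in HF libraries. HF libraries were above the controls in both assays, by the narrowest margin in RPF HF 2. The calls (log2 fold change 0.51, SE 0.21, adjusted p = 0.0418 in RNA and log2 fold change 0.60, SE 0.23, adjusted p = 0.0366 in footprints) stood close to the threshold. The RNA call was lost at an adjusted p of 0.0712 with upper-quartile factors, 0.0751 with DESeq2, 0.108 without RNA control 1, 0.173 without RNA control 2 and 0.143 without RNA HF 3. The footprint call was lost at an adjusted p of 0.0715 with upper-quartile factors, 0.0689 with DESeq2, 0.126 without RPF control 1, 0.125 without RPF control 3 and 0.214 without RPF HF 3. Gfer, the sulfhydryl oxidase that reoxidizes Chchd4, fell in RNA. For Gfer, RNA levels in control libraries were 53.1, 90.2 and 56.7 CPM, beside 34.3, 32.4 and 47.1 CPM in HF libraries. Across control libraries Gfer footprints came to 29.6, 17.2 and 26.7 CPM, and across HF libraries to 11.8, 28.4 and 34.1 CPM. RNA libraries did not overlap (log2 fold change −0.76, SE 0.26, adjusted p = 0.0122), and footprint libraries did (log2 fold change −0.14, SE 0.40, adjusted p = 0.811). The RNA call was lost at an adjusted p of 0.141 without RNA control 2, 0.0615 without RNA HF 1 and 0.0638 without RNA HF 2. The difference between the assays was itself not called (log2 fold change 0.60, SE 0.47, adjusted p = 0.456).

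The inner membrane translocases had no called change in RNA and 3 called increases in footprints. The increases were in 1 of 2 TIM22 genes and 2 of 5 TIM23 genes tested, beside 22.4% of all genes tested. In RNA 2 TIM22 and 4 TIM23 genes were tested, and 43.7% of all genes were called. Timm22, the carrier channel, rose 2.29-fold in footprints. HF libraries gave 58, 38.3 and 71.8 CPM of Timm22 RNA, and control libraries 47.5, 49.3 and 41 CPM. With HF, Timm22 footprints measured 43.3, 65.2 and 60.7 CPM, against 30.4, 21.4 and 15.5 CPM in control libraries. RNA libraries overlapped (log2 fold change 0.31, SE 0.25, adjusted p = 0.323), while all HF footprints were above all controls (log2 fold change 1.19, SE 0.30, adjusted p = 0.00141), a call kept in every alternative. Timm29, its partner subunit, was higher in each HF RNA library without a call (log2 fold change 0.45, SE 0.25, adjusted p = 0.141). Its footprints missed the threshold (log2 fold change 0.71, SE 0.31, adjusted p = 0.0636) and passed it at an adjusted p of 0.0486 with a minimum count of 30, 0.0262 with halved counts and 0.00425 without RPF HF 2.

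Timm23 (chr14:32180166-32201891), the presequence channel, had the highest footprint fold change of the members and a wide spread between HF libraries. Timm23 RNA levels were 27.4, 19.7 and 14.7 CPM in the control libraries and 12.3, 6.88 and 19.4 CPM in the HF libraries. Control libraries held 8.11, 11 and 9.84 CPM of Timm23 footprints and HF libraries 26.4, 5.02 and 56.9 CPM. RPF HF 2 lay below all 3 controls, and RPF HF 3, the shallowest library, was the highest. Footprints were called higher (log2 fold change 1.58, SE 0.51, adjusted p = 0.0125), but without RPF HF 3 the log2 fold change was 0.93 (adjusted p = 0.167) and without RPF control 1 it was 1.41 (adjusted p = 0.0636). With a minimum count of 30, with halved counts and without RPF HF 1, Timm23 footprints did not pass the count filter and were not tested. RNA was not called (log2 fold change −0.64, SE 0.46, adjusted p = 0.262). Timm17a, a subunit of the same channel, rose in footprints with overlapping libraries. The RNA level of Timm17a was 70, 93 and 87.2 CPM in control and 90.6, 129.7 and 107 CPM in HF cells. In footprints, Timm17a stood at 106, 84.6 and 82.9 CPM in control libraries and at 145, 132 and 96.7 CPM in HF libraries. The footprint call (log2 fold change 0.46, SE 0.18, adjusted p = 0.0398) was lost at an adjusted p of 0.0910 with upper-quartile factors, 0.0878 with DESeq2, 0.161 without RPF control 2, 0.142 without RPF control 3, 0.260 without RPF HF 1 and 0.0805 without RPF HF 2. Its RNA missed the threshold (log2 fold change 0.40, SE 0.19, adjusted p = 0.0780) except without RNA HF 1, at 0.55 (adjusted p = 0.0283). Timm17b, the paralog on chromosome X, gave 0.23 in RNA and 0.78 in footprints (SE 0.33, adjusted p = 0.0590), with all HF footprints above the controls. Its footprint p passed the threshold with a minimum count of 30 (0.0437) and with halved counts (0.0429). Timm50, the presequence receptor of the inner membrane, gave −0.31 and −0.32 without a call, and its footprint change reached −0.50 (adjusted p = 0.0440) without RPF HF 3. Timm21, which docks TIM23 to TOM, could be tested in footprints only, at −0.29.

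The processing peptidase and the 2 members outside import closed the set. Pmpca, the substrate-binding subunit, rose in RNA. For Pmpca, RNA levels in control libraries were 192, 268 and 182 CPM, beside 279, 279 and 274 CPM in HF libraries. Across control libraries Pmpca footprints came to 263, 265 and 271 CPM, and across HF libraries to 244, 202 and 284 CPM. RNA of HF libraries was above all controls (log2 fold change 0.39, SE 0.13, adjusted p = 0.00956), and footprints overlapped (log2 fold change −0.13, SE 0.13, adjusted p = 0.446). The RNA call was lost at an adjusted p of 0.0895 without RNA control 1 and 0.0915 without RNA control 3. Pmpcb, the catalytic subunit, was not called, at −0.05 in RNA and 0.06 in footprints. Timmdc1, which assembles complex I, had the highest RNA fold change of the members tested. HF libraries gave 58.9, 52.1 and 56.5 CPM of Timmdc1 RNA, and control libraries 23.3, 12.7 and 15.8 CPM. With HF, Timmdc1 footprints measured 33.8, 23.4 and 34.1 CPM, against 16.6, 18.4 and 14.1 CPM in control libraries. HF libraries were higher throughout. RNA rose 3.11-fold (log2 fold change 1.64, SE 0.31, adjusted p = 9.43e-06). That call held in every alternative, at log2 fold changes of 1.49 to 1.95. The footprint call (log2 fold change 0.89, SE 0.35, adjusted p = 0.0423) was lost in 9 of 13 alternatives, where the adjusted p reached 0.170 (without RPF HF 1). Leaving out RPF control 1, RPF control 2, RPF control 3 or RPF HF 3 also ended it, at 0.119, 0.0784, 0.0999 and 0.0712. Tomm34, a cochaperone of cytosolic Hsp70 and Hsp90, fell in footprints. Tomm34 RNA levels were 54.7, 69.1 and 37.8 CPM in the control libraries and 55.4, 54 and 50.6 CPM in the HF libraries. Control libraries held 97.3, 84 and 68.9 CPM of Tomm34 footprints and HF libraries 47.3, 55.2 and 30.3 CPM. RNA libraries overlapped (log2 fold change −0.00, SE 0.25, adjusted p = 0.998) and footprints did not (log2 fold change −0.91, SE 0.23, adjusted p = 0.00164).

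Translational efficiency (TE), the footprint change less the RNA change, was tested in a model of all 12 libraries, through its interaction term between assay and treatment. Of 31 members tested, 3 rose (Timm23, Tomm20 and Tomm5) and 1 fell (Tomm70a). Over 7926 genes 14.4% were called, 6.13% higher and 8.23% lower, so the members' count was near the background. The median TE change of the members was 0.27, beside 0.00 for all genes tested. TE rose 2.41-fold for Tomm20 (log2 fold change 1.27, SE 0.27, adjusted p = 0.000553), with RNA and footprints moving in opposite directions. For Tomm70a it fell 1.73-fold (log2 fold change −0.79, SE 0.17, adjusted p = 0.000508), at an RNA change of 0.18. These 2 calls held in every alternative. TE of Tomm5 rose 3.46-fold (log2 fold change 1.79, SE 0.50, adjusted p = 0.0108), a value that rests on lower RNA, and it was lost at an adjusted p of 0.0508 without RNA HF 3. TE of Timm23 rose 4.66-fold (log2 fold change 2.22, SE 0.69, adjusted p = 0.0233), and the call was lost at an adjusted p of 0.112 without RNA control 1, 0.0721 without RNA HF 2, 0.0622 without RPF control 1 and 0.141 without RPF HF 3. The log2 value for Timm23 was 1.57 without RPF HF 3. With a minimum count of 30, Timm23 and Tomm5 were not tested. Timm23 was also not tested with halved counts or without RPF HF 1, so its call was not checked there. Tomm34 and Pmpca were not called, at −0.90 (adjusted p = 0.0672) and −0.52 (adjusted p = 0.0580). The TE p of Tomm34 passed the threshold at an adjusted p of 0.0342 with halved counts, 0.0474 with TMM factors over both assays, 0.0307 without RNA control 2 and 0.0419 without RPF HF 2. For Pmpca it did so at an adjusted p of 0.0407 with upper-quartile factors, 0.0319 with no count filter, 0.0312 with halved counts, 0.0322 with TMM factors over both assays, 0.00815 without RNA control 2 and 0.0219 without RPF HF 3.

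**Figure D3:**
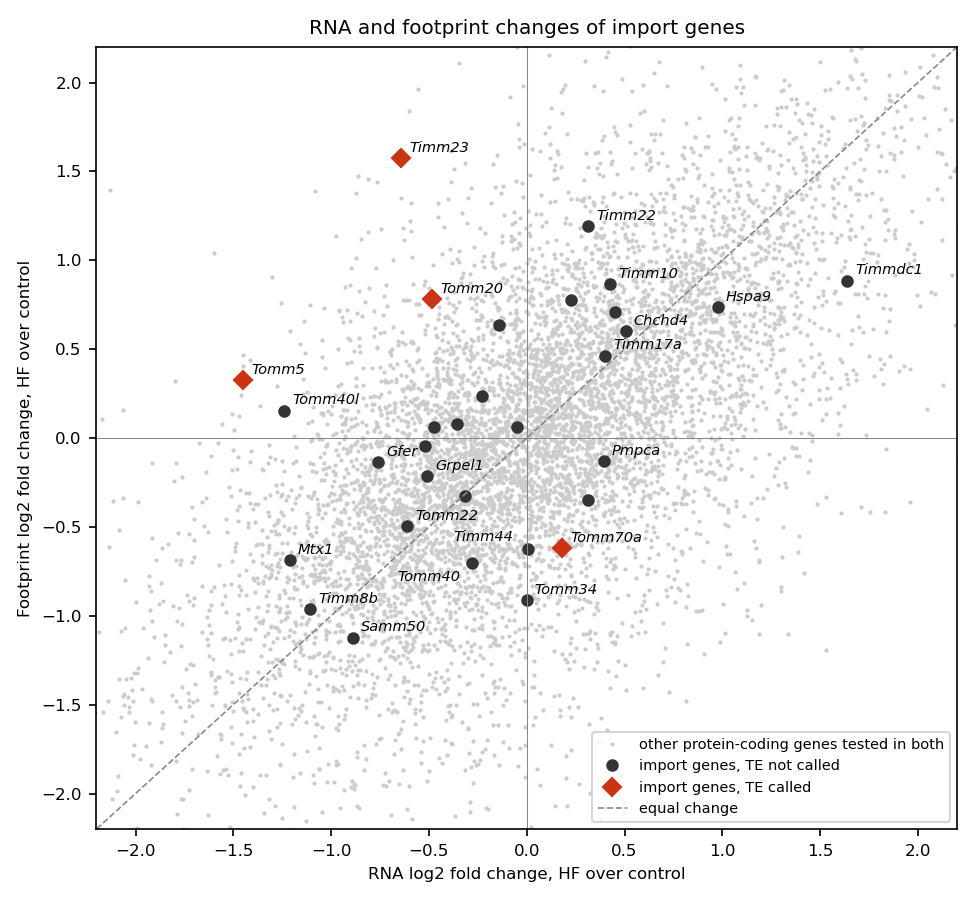
Log2 fold change in RNA (x) against that in footprints (y), HF over control, for import genes (dark circles, red diamonds where the TE change was called) and the other genes among 7926 tested in both assays (grey); the dashed line marks equal change and 315 genes lie beyond the axes, which end at ± 2.2. Timm23, Tomm20 and Tomm5 lie above the line with RNA below 0, and Tomm70a lies below it.

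The 4 genes with a TE call are shown by the 100 bases before their RefSeq transcription start. These bases lie upstream of the annotated transcript and are not part of the mRNA whose translation the TE values describe. The letters are from RefSeq (GRCm38.p6), on the strand of the gene, 5′ to 3′, and capitals mark exact matches to the motifs searched. The windows are chr14:32201892-32201991 (−) for Timm23, chr8:126945922-126946021 (−) for Tomm20, chr4:45108114-45108213 (−) for Tomm5 and chr16:57121614-57121713 (+) for Tomm70a.
Timm23: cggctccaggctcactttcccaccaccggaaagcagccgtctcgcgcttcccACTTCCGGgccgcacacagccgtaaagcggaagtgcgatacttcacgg
Tomm20: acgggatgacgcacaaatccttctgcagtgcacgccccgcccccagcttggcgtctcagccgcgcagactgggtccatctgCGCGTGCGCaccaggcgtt
Tomm5: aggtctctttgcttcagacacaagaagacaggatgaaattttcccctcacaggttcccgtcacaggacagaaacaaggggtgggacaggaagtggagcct
Tomm70a: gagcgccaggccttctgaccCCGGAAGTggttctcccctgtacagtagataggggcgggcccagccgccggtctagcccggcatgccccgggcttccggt
The capitals are an ETS core in Timm23, starting 48 bases before the start site, an NRF1 core in Tomm20, 19 bases before it, and an ETS core in Tomm70a, 80 bases before it. The Tomm5 window holds no match. Motifs were searched as exact letters on both strands in the 250 bases before each start, and 34 of 39 members had an entry. Hspa9, Tomm40l, Tomm7, Grpel2 and Timm21 had none and were not searched. The ETS core (CCGGAAGT or ACTTCCGG), which factors such as GABP bind, was in 7 members (Mtx2, Pmpcb, Timm23, Timm29, Timm8a2, Timmdc1 and Tomm70a), or 20.6%, against 4.26% of 17492 protein-coding genes. The NRF1 core (GCGCANGCG or CGCNTGCGC) was in 4 members (Chchd4, Pam16, Timm13 and Tomm20), or 11.8%, against 8.0% of genes. The C/EBP-ATF element in its letters TTGCATCA or TGATGCAA, a site type through which ATF4 acts, was in 0 of the 34 members searched, Hspa9 not among them, and in 0.926% of genes. The background takes in all protein-coding genes with an entry, whether or not they were detected in these cells. The shares of members were not tested against it. The motifs do not overlap in letters, and a match describes only the window.

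Footprints relative to RNA were also ranked, as a percentile of the ratio of mean footprint CPM to mean RNA CPM among the 7926 genes. The ratio was not corrected for coding or transcript length, so ranks of different genes may reflect these as well as translation. Control cells had 17 of 31 members above the median gene, and the members' median percentile was 55.9. Timm8b (94.2), Hspa9 (91.2) and Tomm7 (86.9) ranked highest. The low end held Tomm40l (6.89), Gfer (9.30), Tomm20 (14.6), Timm23 (15.0) and Timm22 (16.0). As log2 ratios with the SD over libraries, the lowest were −1.67 ± 0.73 for Tomm40l, −1.45 ± 0.59 for Gfer and −1.12 ± 0.51 for Tomm20, so that neighbours at this end do not differ beyond their spread. At the upper end, Timm8b stood at 1.63 ± 0.19, Hspa9 at 1.42 ± 0.14 and Tomm7 at 1.21 ± 0.24, with gaps about as large as the SDs. In HF cells Tomm20 stood at percentile 54.1, Timm23 at 87.8 and Tomm5 at 99.2, up from 65.2. Tomm70a moved from 59.1 to 29.6. These ranks use the same libraries as the TE test and are a description of it.

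**Figure D4:**
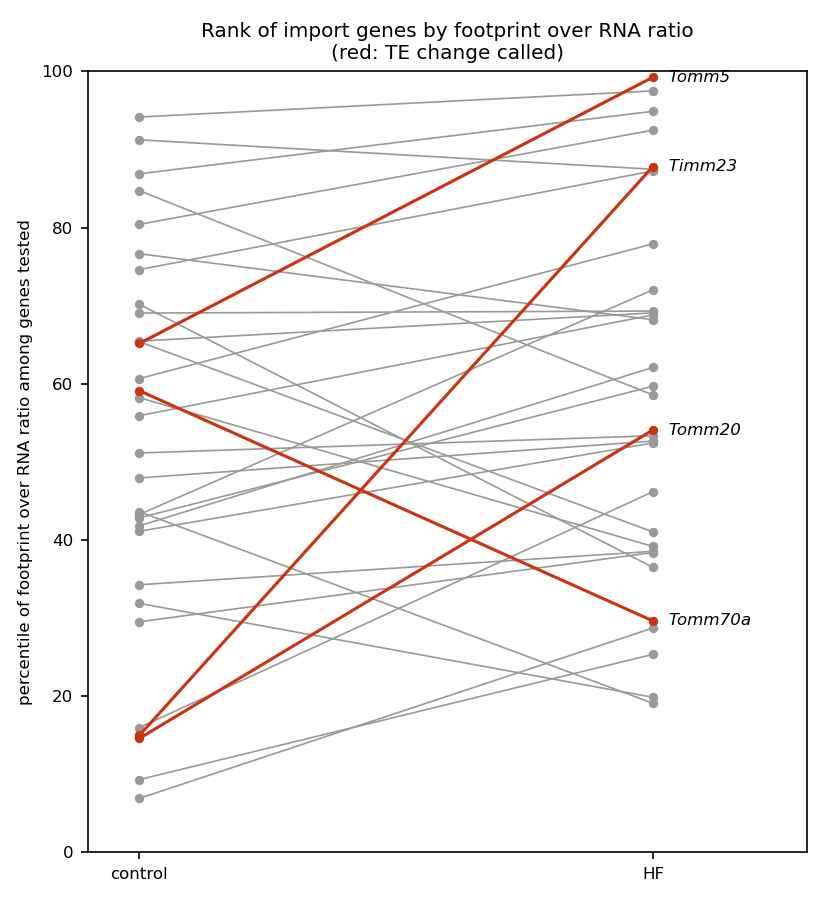
Percentile of the footprint to RNA ratio among 7926 genes (y axis) in control and HF cells, 1 line per import gene (31 lines), red where the TE change was called. Timm23 and Tomm20 start at 15.0 and 14.6 and end at 87.8 and 54.1, Tomm5 ends at 99.2, and Tomm70a is the red line that falls.

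Genes around the import machinery were counted with the same fits, and their changes are log2 fold changes. The background for each list is 22.2% of all genes higher and 21.4% lower in RNA, and 22.4% higher and 20.9% lower in footprints, and no list was tested against it. Of 9 tested genes of other import and insertion factors, 0 rose and 1 fell in RNA, and 1 rose and 1 fell in footprints. Pink1, a kinase degraded when import works, fell by 1.60 in RNA (adjusted p = 0.0162) with footprints at 1.04 (adjusted p = 0.188). Dnlz, a helper of Hspa9, rose by 0.91 in footprints (adjusted p = 0.0443), and Oxa1l, the insertase for proteins from the matrix, fell by 0.69 in footprints (adjusted p = 0.00544). Of 9 matrix chaperones and proteases, 2 rose and 3 fell in RNA and 3 rose and 3 fell in footprints. Hspe1, the cochaperonin of Hsp60, fell by 0.97 in RNA and 0.63 in footprints. Clpx, the unfoldase of the ClpXP protease, rose by 1.00 in RNA with footprints at −0.06. Afg3l2, a subunit of the m-AAA protease, fell by 0.79 in RNA and 1.41 in footprints. These values put Hspa9 among matrix chaperones that moved in different directions.

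Of 8 genes of inner membrane proteases and of the relay through DELE1, which carries mitochondrial stress to the integrated stress response, 1 rose and 2 fell in RNA and 3 rose and 2 fell in footprints. Dele1 rose by 0.80 in footprints (adjusted p = 0.0257) with RNA at 0.16. Stoml2, a scaffold of inner membrane proteases, rose by 0.80 in footprints with RNA at −0.18, and Phb, a prohibitin, fell by 1.27 in RNA and 0.97 in footprints. Of the MICOS and outer membrane channel genes, 0 of 7 rose and 3 fell in RNA, and 1 of 8 rose and 4 fell in footprints. Among these Chchd3 fell by 0.47 in RNA and 1.35 in footprints, Apool fell by 1.05 in footprints, and Chchd6 rose by 1.03 in footprints with RNA at −0.22. Of the MIA substrates with twin CX9C motifs, 0 of 11 rose and 4 fell in RNA, and 1 of 10 rose and 2 fell in footprints. Ndufa8, a complex I subunit, fell by 1.62 in RNA and 1.05 in footprints. Chchd1, of the mitochondrial ribosome, fell by 1.56 and 0.93, and Triap1, a lipid transfer partner, rose by 1.22 in footprints with RNA at −0.06. Of 10 cytosolic chaperones of precursors, 2 rose and 6 fell in RNA, and 0 rose and 5 fell in footprints. Hspa8, the constitutive Hsp70, fell by 2.51 and 1.95, Ubqln2, a ubiquilin, by 0.68 and 0.97, and Dnaja1, a J-protein cochaperone, fell by 1.04 in footprints with RNA at −0.67. For scale, Atf3 and Chac1, stress response genes, rose by 4.32 and 3.12 in RNA and by 4.52 and 3.87 in footprints, and Ppp1r15a, which reverses eIF2 phosphorylation, by 2.66 and 3.92.

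A few members were at or near the limit of detection. Tomm20l, a paralog of Tomm20, had 0 counts in every library, which allows a level of up to 0.437 CPM over the RNA libraries and 0.372 CPM over the footprint libraries (3 counts of the summed totals, counting error only). Tomm6, a small TOM subunit, was counted in RNA HF 2 and RNA HF 3 alone, at 1.96 and 1.18 CPM. For these genes, and for Timm8a2, a difference between groups was not detectable at this depth. The gene spans of 22 of the 39 members overlap another annotated gene, Timm23 and Tomm20 among them, so some of their reads may belong to a neighbour.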

How the data were processed

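Counts per gene were compared between halofuginone-treated (HF) and control fibroblasts in 12 libraries, with 3 per group and groups and replicate numbers from the titles. The values are raw read counts by gene, deposited by the authors without normalization, in a table for every library. The tools were Bowtie, HISAT2 and HTSeq and the genome GRCm38, per the submitters' processing notes, which give no versions. Per the labels' protocols, total RNA was hydrolysed, and footprints came from RNase I digestion and the monosome fraction, with depletion of ribosomal RNA. Whether whole transcripts or coding regions were counted, whether strand was used and how reads with several matches were handled is not given in the sources used here, so footprints outside the coding region may be included.

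Of 55536 gene IDs, 55450 matched a symbol, and 38652 matched a RefSeq gene type, which was protein-coding for 21409. There were 0 entries without a gene. The lncRNA Tomm6os carries the prefix but is no member. The members and the lists of other genes were chosen with earlier results of these data known, and the ETS and NRF1 motifs after the data were seen. All members are named; per-library values are given for those called in at least 1 comparison. Of each other list up to 3 called genes with the largest change are named.

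Tests used R 4.3.3 and edgeR 4.0.16 (quasi-likelihood, TMM factors, filterByExpr with a minimum count of 10, Benjamini-Hochberg adjustment over all genes tested, threshold 0.05): RNA over all genes, footprints over protein-coding genes, and TE as the assay by treatment interaction with TMM factors within each assay. CPM values of genes were computed here with TMM factors from the deposited counts, while marker sums and detection limits used library totals without them. Standard errors (SE) were derived from each fold change with its F value. A shift common to all genes would not be seen. The code was tested on simulated data. Alternatives were DESeq2 1.42.0, other scaling, other filters, halved counts, other gene sets, a replicate block and each library left out. Counts were halved because more nonzero counts were even than odd, and the sources do not say why. Protein sequences and coding lengths were not used here, so levels and footprint to RNA ratios of different genes are not corrected for length.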

Additional observations from a re-analysis of the deposited data

How the results depend on the processing

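No direction of a called change reversed. Of 13 members called in RNA, 4 (Hspa9, Timmdc1, Samm50 and Mtx1) kept the call in all alternatives, 9 lost it in at least 1, and 2 others gained one. In footprints, 15 members were called, of which 8 (Hspa9, Timm22, Timm10, Tomm20, Samm50, Tomm70a, Tomm34 and Timm8b) kept the call, 7 lost it, and 4 others gained one. In TE, 2 of 4 kept it (Tomm20 and Tomm70a), 2 lost it, and 2 others gained one. Leaving out 1 library gave 2 to 5 members higher and 5 to 9 lower in RNA, with 2 without RNA control 1 and 5 without RNA HF 3. In footprints it gave 5 to 8 higher and 6 to 8 lower, with 5 higher without RPF control 1, RPF control 3, RPF HF 1 or RPF HF 3. In TE it gave 2 to 3 higher and 1 to 3 lower, with 3 lower without RNA control 2 and 2 without RPF HF 2 or RPF HF 3. Members higher in footprints numbered 5 with upper-quartile factors and 5 with DESeq2, against 8. Members lower in TE numbered 2 with upper-quartile factors, 2 with no count filter, 3 with halved counts and 3 with TMM factors over both assays, against 1. With a minimum count of 30, 1 member was higher in TE, since fewer genes were tested. For the others the cause was not tested.

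No pairing by replicate number was visible: deviations of same-numbered libraries correlated between −0.03 and 0.02. This does not show that the libraries were unpaired. With the replicate block, 4 members were higher and 9 lower in RNA, 7 and 7 in footprints, and 3 and 1 in TE. The block ended the footprint call of Timmdc1, at a log2 fold change of 0.87 (adjusted p = 0.0677). Levels per coding length and protein features were planned and not run. The log2 footprint to RNA ratios of control cells moved by less than the spread between libraries in all 246 alternative values. Most of these alternatives left out 1 library of 3, which can hardly move a mean beyond that spread. The comparison could therefore hardly come out otherwise and is no measure of robustness. The ranks in HF cells were not recomputed. Members of low count, such as Timm23 and Tomm40l, are limited by depth.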
